A study of Mus musculus with 18 samples.

Results

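The passage from the acute to the late phase of the LPS response was followed between 6 and 12 h in dendritic cells grown from mouse bone marrow. The comparison sets the 3 arrays of cells held with LPS for 12 h against the 3 arrays of cells held with it for 6 h, and pairs each 12 h array with the 6 h array of its own condition. These are 6 of the 18 arrays of the series, chosen by their labels alone. Wild-type cells of strain C57BL/6 received smooth LPS at 1 µg/ml. A second set of C57BL/6 cells received the same LPS dose together with 2 mM EGTA, which binds extracellular calcium. The third set came from Cd14-/- C57BL/6 mice, which lack a co-receptor for LPS, and received smooth LPS at a concentration that the labels do not state. All mice were 6-8 weeks old, and all cultures had been grown with supernatant of B16 tumour cells that make GM-CSF, so that every group shares this supernatant. Per the labels the study sought effects of calcium fluxes by comparing the 3 conditions, and each condition and time has 1 array.

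LPS is sensed by the receptor Tlr4, whose adaptors switch on NF-kB and the interferon genes. In dendritic cells this starts an early burst of cytokines and chemokines, an interferon response, the loss of antigen uptake and a move towards antigen presentation and migration. The early genes include strong brakes on their own transcription and RNA stability, and the cells also leave the cell cycle as they mature.

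The 6 RNA samples had RNA integrity numbers of 9.5 to 10, apart from the EGTA sample at 12 h with 8.8, and the median deposited intensity of an array ran from 79.0 to 110. The median correlation of an array with the other 5 was 0.961 to 0.971, and none of the 15 pairs of arrays held identical values. Levels below are log2 values of the deposited intensity plus 16 after quantile normalisation, and the highest level on any array was 13.96. Changes are 12 h minus 6 h on this scale, as the mean of the 3 conditions with its standard error (SE) and the adjusted p of limma with time and condition as terms. Whether the arrays stem from independent cultures or mice is not stated in the labels, so the p-values cannot be read against a spread between cultures or mice. The 3 conditions serve as the replicates of a time in a fit over the 15 LPS arrays. The p-values set a change against how far the 3 conditions differ in their course over time. That spread could be technical and could also hold differences in response between the conditions. The small number of arrays limits the precision. No unstimulated cells were collected at 6 or 12 h, so time in LPS cannot be told apart from time since plating. Cd14 itself checked the labels, with levels of 13.00 and 12.79 in wild-type cells and 12.71 and 12.49 with EGTA at 6 and 12 h, against 4.28 and 5.83 in Cd14-deficient cells.

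Of 6929 genes tested, 1108 differed between 12 and 6 h at an adjusted p under 0.05 in limma. At 12 h, 617 (8.90%) were higher and 491 (7.09%) lower, and the median change over all genes tested was 0.03. With no scaling beyond that of the deposited values, 774 genes were called and 75.6% of these were higher at 12 h, against 55.7% in the values used here. The median of all genes tested was then 0.14. Most changes were small: 628 of the called genes moved by less than 0.5 on the log2 scale, and only 19 rose (0.274%) and 45 fell (0.649%) by 2-fold or more. The median called rise was 1.35-fold and the median called fall 1.44-fold. Falls thus outnumbered rises among the large changes, as the plot of change against level shows.

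**Figure D1:**
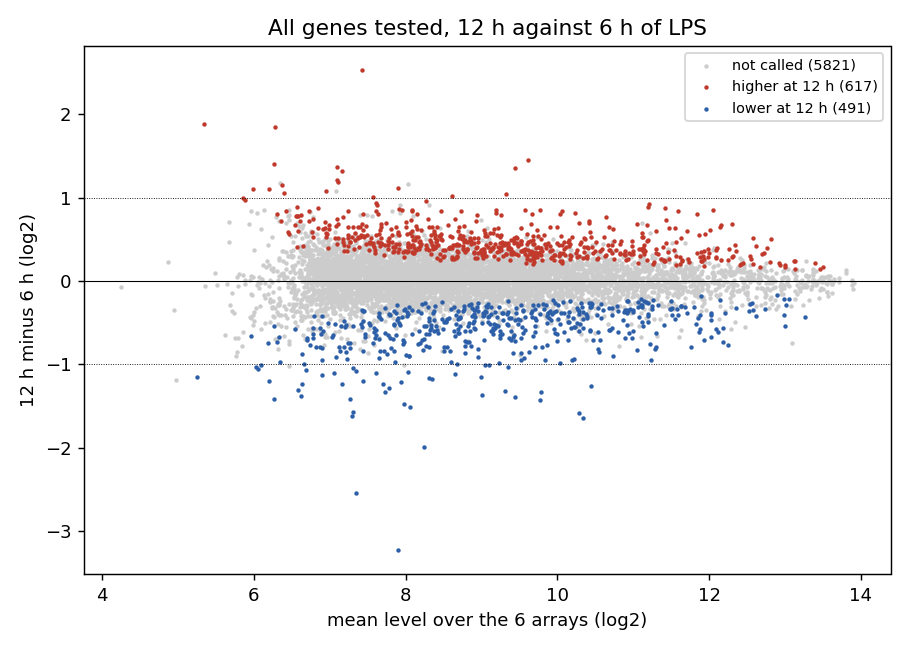
Each point is 1 of the 6929 genes tested, with its mean level over the 6 arrays on the x axis (log2) and its change from 6 to 12 h on the y axis (log2, mean of 3 conditions). Red points (617) were higher and blue points (491) lower at 12 h by limma; dotted lines mark a 2-fold change, passed by 19 called rises and 45 called falls.

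Promoters are printed for 5 of the falling genes as examples of 4 programmes described below, since their letters let the sequence be set beside the changes. They are from RefSeq (GRCm38.p6), 250 bases before to 50 after the start, read 5′ to 3′ on the strand of the gene. Capitals mark the motif named for each gene, and in Ube2c and Ccnb2 CCAAT as well, on either strand.

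Idi1 (chr13:8885356-8885655, plus strand, sterol synthesis, CCAAT): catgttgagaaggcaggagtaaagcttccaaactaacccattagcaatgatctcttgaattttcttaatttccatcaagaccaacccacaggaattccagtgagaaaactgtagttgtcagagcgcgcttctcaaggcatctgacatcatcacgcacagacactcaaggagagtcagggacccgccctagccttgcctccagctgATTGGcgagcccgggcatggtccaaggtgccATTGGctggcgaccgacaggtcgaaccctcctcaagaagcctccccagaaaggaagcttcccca
Ube2c (chr2:164769679-164769978, plus strand, mitosis, TTTGAA): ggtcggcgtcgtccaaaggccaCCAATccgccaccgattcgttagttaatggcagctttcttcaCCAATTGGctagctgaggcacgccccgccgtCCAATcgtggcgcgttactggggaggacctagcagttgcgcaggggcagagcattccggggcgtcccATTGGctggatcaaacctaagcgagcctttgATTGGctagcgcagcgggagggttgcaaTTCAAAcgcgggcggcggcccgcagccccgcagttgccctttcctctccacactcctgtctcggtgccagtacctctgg
Ccnb2 (chr9:70421505-70421804, minus strand, mitosis, TTTGAA): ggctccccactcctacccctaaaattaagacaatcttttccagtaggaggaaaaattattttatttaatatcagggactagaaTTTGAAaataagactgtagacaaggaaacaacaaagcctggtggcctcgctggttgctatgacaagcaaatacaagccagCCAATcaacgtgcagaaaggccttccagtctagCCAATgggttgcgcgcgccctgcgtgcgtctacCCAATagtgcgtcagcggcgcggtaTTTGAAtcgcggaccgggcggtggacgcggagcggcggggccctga
Cxcl10 (chr5:92348840-92349139, minus strand, interferon response, GAAA then any 2 bases then GAAA): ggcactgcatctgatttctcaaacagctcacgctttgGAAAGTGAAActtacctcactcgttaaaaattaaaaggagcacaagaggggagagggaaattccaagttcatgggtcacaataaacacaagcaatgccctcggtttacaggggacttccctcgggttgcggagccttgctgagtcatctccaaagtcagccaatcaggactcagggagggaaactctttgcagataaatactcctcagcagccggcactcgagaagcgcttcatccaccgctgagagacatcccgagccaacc
Ltb (chr17:35194257-35194556, plus strand, NF-kB list, GGG then any 2 bases then TTTCC): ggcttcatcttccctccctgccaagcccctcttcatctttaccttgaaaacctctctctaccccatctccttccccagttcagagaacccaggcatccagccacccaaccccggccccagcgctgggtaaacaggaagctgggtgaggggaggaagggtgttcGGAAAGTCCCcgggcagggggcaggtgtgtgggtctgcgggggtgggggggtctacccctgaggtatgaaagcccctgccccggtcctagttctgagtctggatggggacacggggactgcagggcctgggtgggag

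A promoter was at hand for 5711 of the 6929 genes tested, and each motif was searched on both strands. TTTGAA, the cell cycle homology region element, lay in 82.6% of the 23 mitosis promoters against 11.6% of all genes tested. CCAAT, the site of the factor NF-Y, lay in 90.0% of the 20 sterol promoters against 38.2%. CCAAT was not particular to that list, with 78.3% of the mitosis promoters and 63% of 27 DNA replication promoters. The sterol response element, searched as TCACNCCAC, lay in 1 of the 20 sterol promoters (5%) against 0.946%. The interferon-stimulated response element, searched as GAAA, any 2 bases and GAAA, lay in 56.5% of the 23 interferon promoters against 3.47%, and the NF-kB letters, searched as GGG, any 2 bases and TTTCC, in 29.4% of 17 against 1.77%. These shares describe the lists, members not called included. Among the falls of the NF-kB list, promoters were at hand for 2 genes, and the letters lay in Ltb but not in Il18. Among the falls of the interferon list they were at hand for 4 genes, and 2 held the element.

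Over all called genes the NF-kB letters lay in 2.83% of the promoters of genes lower at 12 h and in 1.36% of those higher, and TTTGAA in 14.9% and 8.17%. CCAAT did not lean to either side, with 40.4% of the lower and 41.8% of the higher genes. The interferon-stimulated response element lay in 5.14% and 3.11%, the AP-1 letters TGANTCA in 6.17% and 4.28%, the NFAT core TGGAAA in 19.8% and 15.4%, the E2F letters TTTCCCGC in 1.80% and 1.95% and the sterol response element TCACNCCAC in 1.80% and 0.778%, lower genes first. Over all genes tested the AP-1 letters lay in 5.32%, the NFAT core in 15.9% and the E2F letters in 2.19%. None of these differences was tested. A match describes the letters and is not a site shown to be bound.

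The 2 steepest falls, of Ccl1 and Plagl1, are given first. Ccl1, a chemokine for lymphocytes and monocytes that acts through Ccr8, stood at 8.91 in wild-type cells, 8.59 with EGTA and 11.03 in Cd14-deficient cells at 6 h, and at 5.76, 5.61 and 7.47 at 12 h. Every 12 h level was below every 6 h level, which held for 8.83% of all genes tested, while 13.0% had every 12 h level above every 6 h level. The fall of 9.38-fold (log2 change -3.23, SE 0.41, adjusted p = 0.000594 in limma) was the largest of all genes called. In wild-type cells Ccl1 had stood at 5.52 without LPS and 11.51 after 2 h. Plagl1, a zinc finger transcription factor, moved from 9.71, 9.09 and 7.04 at 6 h to 6.48, 6.13 and 5.60 at 12 h, in the same order of conditions, a 5.81-fold fall (log2 change -2.54, SE 0.41, adjusted p = 0.00195). Its 12 h levels all lay under the 6 h levels. The change was -1.44 in Cd14-deficient cells, which began lowest, -3.22 in wild-type and -2.95 in EGTA cells.

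Arg1, the arginase that breaks arginine down to ornithine and urea, fell by 3.99-fold (log2 change -2.00, SE 0.25, adjusted p = 0.000566 in limma). Its levels were 9.89, 9.59 and 8.26 at 6 h and 8.43, 7.29 and 6.03 at 12 h in wild-type, EGTA and Cd14-deficient cells. The 2 sets of levels overlapped across conditions, although each condition fell. Unlike Ccl1, Arg1 was highest without LPS, at 12.78 in wild-type cells, and it stood at 10.15 at 24 h. Nos2, the inducible nitric oxide synthase that competes for the same substrate, moved from 9.98, 8.18 and 7.98 to 8.95, 6.82 and 5.94, a 2.78-fold fall (log2 change -1.48, SE 0.46, adjusted p = 0.0448). That call was lost when any of the 6 arrays was left out, with a highest adjusted p of 0.496 over all alternatives.

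Ccl7, Tnfsf8, Il23a and Il10, which encode cytokines or ligands, were among the other falls. Ccl7, a monocyte chemoattractant, stood at 12.67, 10.55 and 10.27 at 6 h and at 11.31, 8.48 and 8.77 at 12 h, so that the sets overlapped while all conditions fell (log2 change -1.64, SE 0.26, adjusted p = 0.00166 in limma). Tnfsf8, the ligand of CD30, went from 9.21, 7.57 and 7.53 to 7.15, 6.13 and 6.18 with no overlap (log2 change -1.62, SE 0.28, adjusted p = 0.00339). Il23a, the p19 subunit of IL-23, dropped from 7.76, 7.66 and 8.85 to 6.52, 6.93 and 6.10 (log2 change -1.57, SE 0.39, adjusted p = 0.0164). The Il23a change ran from -0.73 with EGTA to -2.75 in Cd14-deficient cells, and the call was lost without the wild-type 12 h array or without either Cd14-deficient array and its size ran from -1.99 to -0.98 over all alternatives. Il10, the anti-inflammatory cytokine, fell from 8.81, 8.52 and 7.86 to 7.56, 7.56 and 6.08 (log2 change -1.33, SE 0.31, adjusted p = 0.0127). That call was lost without the wild-type 6 h array or either Cd14-deficient array, with values over all alternatives of -1.51 to -1.05.

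Some receptors and regulators also fell. Tsc22d1, a leucine zipper transcriptional regulator, moved from 11.55, 10.77 and 10.92 to 9.94, 8.97 and 9.57 without overlap (log2 change -1.59, SE 0.13, adjusted p = 2.83e-05 in limma). Tlr3, the endosomal receptor for double-stranded RNA, fell by -1.39, -1.28 and -1.42 in wild-type, EGTA and Cd14-deficient cells (mean -1.36, SE 0.18, adjusted p = 0.000594). Its levels had climbed from 6.17 without LPS to 10.30 at 6 h in wild-type cells and stood at 8.92 at 12 h. Calcrl, the receptor for calcitonin gene-related peptide and adrenomedullin, fell by 1.51 on the log2 scale (SE 0.30, adjusted p = 0.00623). Edn1, which encodes endothelin-1, fell by 1.33 on the log2 scale (SE 0.20, adjusted p = 0.00149). The other falls among the 15 largest were Slc44a1, a choline transporter, Emp1, Ptgis, the prostacyclin synthase, Adssl1 and Phxr4, with changes between -1.42 and -1.37.

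Several of the largest rises began from low levels. Tm4sf1, a surface protein of the tetraspanin-like L6 family, stood at 5.33 in wild-type, 5.14 in EGTA and 8.00 in Cd14-deficient cells at 6 h, and at 9.18, 6.43 and 10.46 at 12 h. The sets overlapped, since Cd14-deficient cells at 6 h lay above EGTA cells at 12 h, and the change was 2.53 (SE 0.74, adjusted p = 0.0364 in limma). That call was lost when any array other than EGTA at 12 h was left out, with sizes of 1.45 to 3.16 over all alternatives. Slc27a3, of the fatty acid transport protein family, rose from 4.26, 4.40 and 4.54 to 6.36, 6.14 and 6.36 (log2 change 1.88, SE 0.33, adjusted p = 0.00342), starting near the bottom of the scale. Cysrt1 rose by 1.85 (SE 0.38, adjusted p = 0.00668), yet stood at 6.87 in wild-type cells at 4 h and 4.99 at 6 h, and its 24 h minus 4 h change was 0.21.

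Rises with smaller errors included Ly6i, a GPI-anchored Ly6 surface protein, which stood at 8.68, 9.02 and 8.62 at 6 h. At 12 h it stood at 10.05, 10.37 and 9.94. The sets did not overlap and the change was 1.35 (SE 0.17, adjusted p = 0.000566 in limma). Ly6i was higher at each later time in wild-type cells, from 6.03 without LPS to 11.16 at 24 h. Tspan13, a tetraspanin, rose from 8.60, 9.84 and 8.23 to 10.08, 10.96 and 9.97 (log2 change 1.45, SE 0.22, adjusted p = 0.00161). It had first dropped in wild-type cells, from 9.40 without LPS to 8.33 at 4 h. Slamf6, a self-binding receptor of the SLAM family, rose from 7.42, 7.03 and 7.58 to 8.62, 8.56 and 8.19 (log2 change 1.11, SE 0.15, adjusted p = 0.000806). The plot of the largest changes shows the remainder, among them Narf at 1.21 and Slc19a2, a thiamine transporter, at 1.09.

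**Figure D2:**
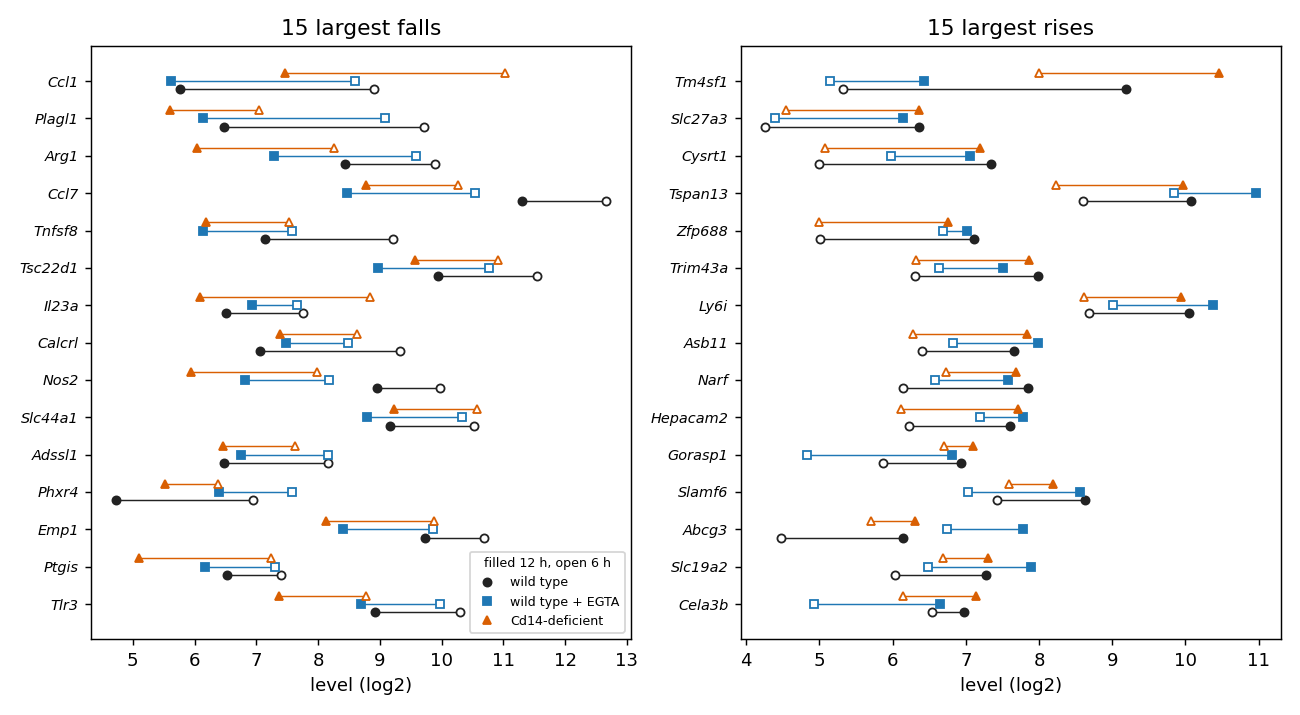
Levels (log2, x axis) of the 15 largest called falls and 15 largest called rises with the same sign in all 3 conditions; open symbols are 6 h and filled symbols 12 h, joined within a condition. Ccl1 moved from 8.59 to 11.03 at 6 h down to 5.61 to 7.47 at 12 h, and every gene shown moved the same way in wild-type, EGTA and Cd14-deficient cells.

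The 4 h and 24 h arrays do not enter the change from 6 to 12 h, although they share the normalisation, the filter and the residual variance of the fit behind its calls. Of the 617 genes higher at 12 h, 580 (94.0%) were higher at 24 h than at 4 h in all 3 conditions, against 38.2% of all genes tested. Of the 491 lower genes, 455 (92.7%) were lower at 24 h than at 4 h in all 3 conditions, against 29.5% of all genes tested. In the same fit, whose variances both contrasts share, 561 of the 617 were called higher and 445 of the 491 lower for 24 h against 4 h, where 29.0% of all genes tested were higher and 22.4% lower. Cysrt1, among the largest rises, was not higher at 24 h than at 4 h in every condition.

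**Figure D3:**
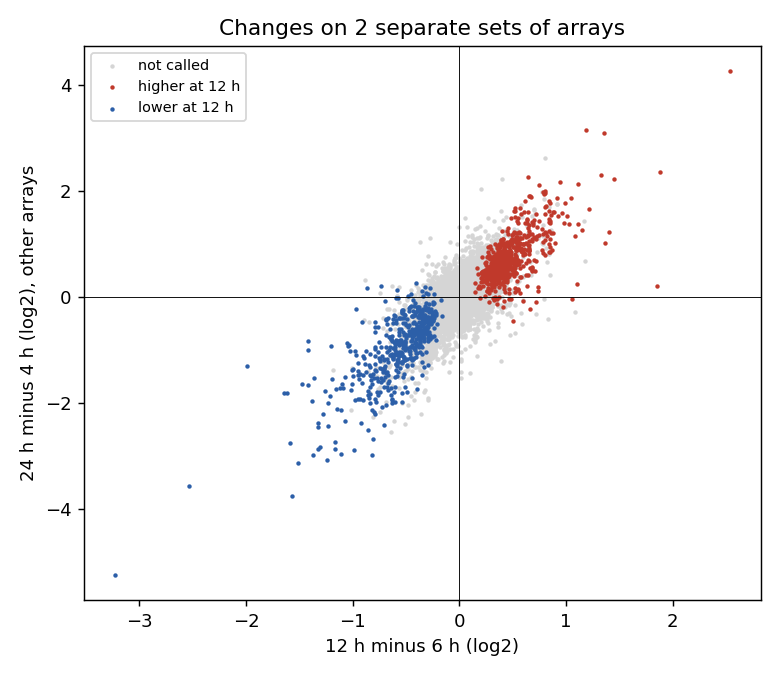
Change from 6 to 12 h (x axis, log2) against the change from 4 to 24 h (y axis, log2) for the 6929 genes tested, each a mean of 3 conditions. The 2 axes use no array in common; 580 of the 617 genes higher at 12 h (red) were also higher at 24 h than at 4 h in every condition, and 455 of the 491 lower genes (blue) were lower.

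The early part of the course differed between the rising and falling genes. At 4 h, 325 of the 491 falling genes (66.2%) stood above their unstimulated level in all 3 conditions, against 31.1% of all genes tested. By contrast 416 of the 617 rising genes (67.4%) stood below it, against 41.5% of all genes tested. Among the 45 genes that fell by 2-fold or more, 32 had stood above the unstimulated level and 11, such as Arg1, below it. The 19 genes that rose by 2-fold or more did not share the lean of all rising genes. Of these, 7 (36.8%) had stood above the unstimulated level in all 3 conditions and 5 (26.3%) below it. The unstimulated cells were harvested 24 h after plating, so LPS and the time since plating cannot be told apart here either.

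**Figure D4:**
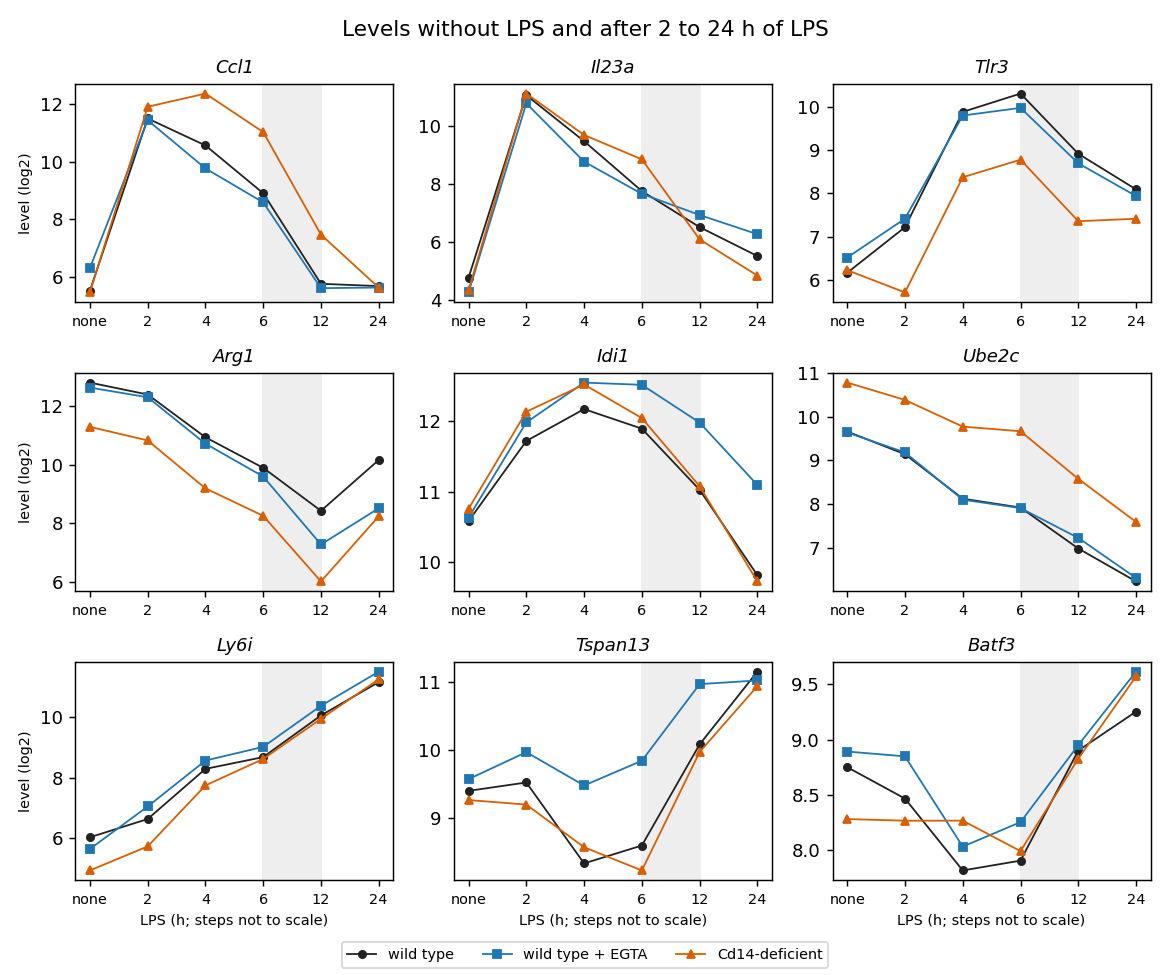
Level (log2) of 9 genes without LPS and after 2, 4, 6, 12 and 24 h of LPS in the 3 conditions, 1 array per point; the grey band marks 6 to 12 h. Ccl1, Il23a and Tlr3 were high by 2 to 6 h and lower at 12 h, Ube2c was lower at each later time, Arg1 was lowest at 12 h and higher again at 24 h, and Batf3 and Tspan13 dipped before they rose.

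Among 25 tested members of a list of NF-kB-driven inflammatory cytokines and chemokines, 7 fell (28.0%, against 7.09% of all genes tested) and none rose. The median change was -0.30 against 0.03 for all genes tested. The fallers were Ccl7, Il23a, Nos2, Il10, Ltb, Il18 and Ccl4. Ltb, the beta subunit of the membrane lymphotoxin complex, fell from 6.68, 7.46 and 7.52 to 5.51, 6.40 and 6.53 with no overlap (log2 change -1.07, SE 0.19, adjusted p = 0.00382 in limma). Il18, an IL-1 family cytokine that drives interferon-gamma, fell by 1.01 on the log2 scale, and Ccl4, the chemokine MIP-1 beta, by 0.94. With 1 of the 6 arrays left out, 4 to 6 members were called, and without the wild-type condition 2.

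**Figure D5:**
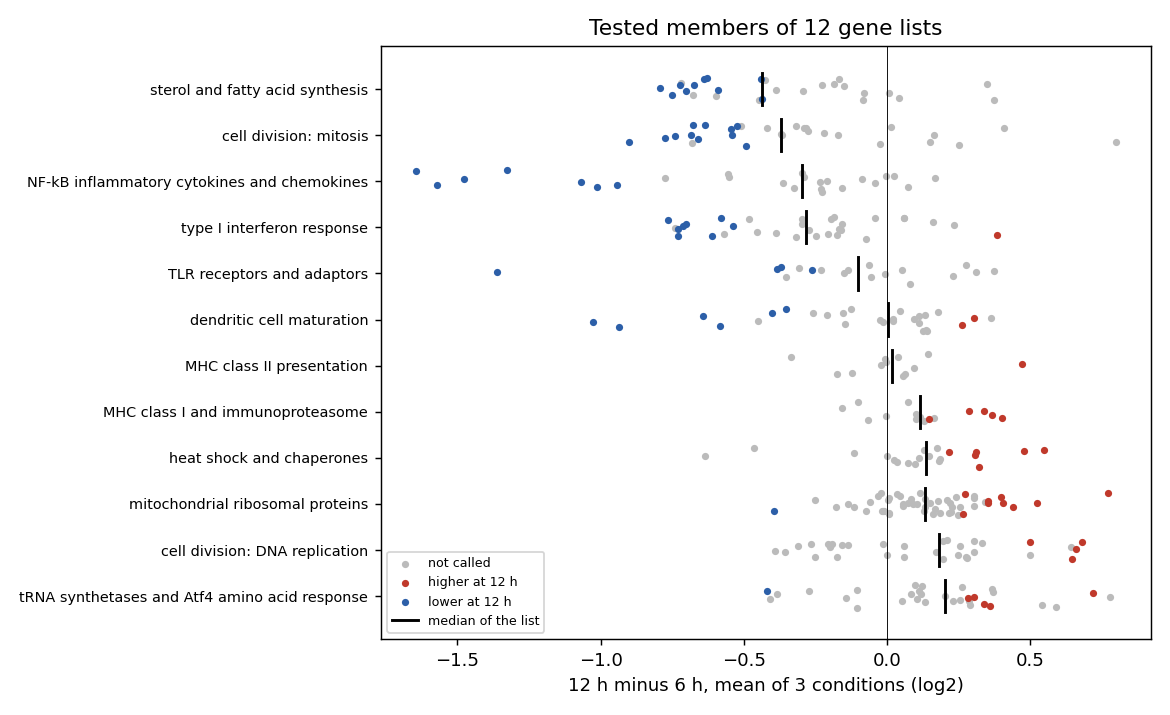
Change from 6 to 12 h (x axis, log2, mean of 3 conditions) of each tested member of 12 gene lists; red points were called higher, blue points called lower and grey points not called in limma, and a black bar is the median of the list. Medians ran from -0.44 for sterol and fatty acid synthesis to 0.20 for tRNA synthetases and the Atf4 amino acid response.

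The best known products of the list did not pass the test. Il1b, the secreted pyrogen, stood at 13.60, 13.57 and 13.63 at 6 h and 13.60, 13.51 and 13.69 at 12 h. Il6 changed by -0.23 (adjusted p = 0.366 in limma), Tnf by -0.36 (adjusted p = 0.237) and Il12b, the p40 subunit of IL-12 and IL-23, by -0.29 (adjusted p = 0.193), none called. Il1a, Il1b, Il6, Il12b, Ccl3, Ccl5 and Cxcl2 lay near the top of the scale, and their changes ran from -0.29 to 0.02. Within IL-23, then, Il23a was called lower and Il12b was not. Their changes were not tested against each other.

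The list of NF-kB subunits and inhibitors had a median change of -0.04, with 11 of 13 changes negative, against 3084 of all 6929 genes tested. Of the 13 tested genes 2 fell (15.4%, against 7.09% of all genes tested) and none rose. Rel, the c-Rel subunit, moved from 9.72, 9.55 and 9.85 to 9.13, 8.91 and 9.04 with no overlap (log2 change -0.68, SE 0.11, adjusted p = 0.00165 in limma). Nfkbiz, an atypical IkB protein that is a co-activator for late genes, fell by 0.82 on the log2 scale (SE 0.21, adjusted p = 0.0188). The Nfkbiz call was lost in 4 of the 6 cases with 1 array left out. The inhibitors Nfkbia and Tnfaip3 changed by -0.01 and -0.30 without passing the test.

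Feedback regulators and immediate early genes gave few calls. Rises and falls made up 5.88% and 11.8% of 17 feedback inhibitors and 5% each of 20 immediate early genes. The shares of all genes tested were 8.90% and 7.09%. Of 17 feedback inhibitors Socs2, a suppressor of cytokine signalling, rose by 0.30, and the phosphatase gene Dusp2 and the RNase gene Zc3h12a fell by 0.40 and 0.61 on the log2 scale, 2 falls that were lost without further scaling. Of 20 immediate early genes Jun rose by 0.48 and Mafk fell by 0.83 on the log2 scale. Fos changed by -0.02 and Egr1 by -0.51, neither called.

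The sensing machinery had 4 falls (22.2%, against 7.09% of all genes tested) and no rises among 18 tested genes. The list median was -0.10. Beside Tlr3, Myd88, the adaptor shared by most Toll-like receptors, fell by 0.37 on the log2 scale, and its call was lost without further scaling. Tlr2, the receptor for bacterial lipoproteins, and Ly96, the MD-2 protein that holds LPS on Tlr4, fell by 0.38 and 0.26. Without further scaling 2 of the list fell. Tlr4 itself changed by 0.31 without passing the test.

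Of 32 tested genes of the type I interferon response 8 fell (25%) and 1 rose (3.12%), against 7.09% and 8.90% of all genes tested. The median change was -0.28. Ifih1, the cytosolic RNA sensor MDA5, stood at 12.88, 12.84 and 12.17 at 6 h, and 12 h gave 12.05, 12.17 and 11.39. These sets of levels only just failed to overlap, at 12.17 on both sides, and the change was -0.76 (SE 0.12, adjusted p = 0.00145 in limma). Ifi35 fell by 0.71, Iigp1, an immunity-related GTPase, by 0.70 and Mx1, an antiviral GTPase, by 0.61 on the log2 scale.

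Cxcl10, a chemokine for activated T cells, moved from 13.51, 13.44 and 12.85 to 13.04, 13.11 and 12.04, with overlap between the sets (log2 change -0.54, SE 0.13, adjusted p = 0.0151 in limma). The Cxcl10 call was lost without the wild-type 12 h array or either Cd14-deficient array, with values of -0.68 to -0.40 over all alternatives. Cxcl9 fell by 0.73. Bst2, the tetherin that holds budding viruses at the membrane, rose by 0.39, from 12.00, 11.96 and 11.42 to 12.33, 12.30 and 11.91, a call that was lost under median centring. Ifit1 changed by -0.32 and Irf7 by 0.16 without passing the test. With 1 array left out 2 to 6 members fell, and without the wild-type condition none did. Ifnb1, the inducer of this programme, was already at 6.97, 6.04 and 5.58 at 6 h against 10.34, 9.91 and 8.15 at 2 h, and changed by -0.32 to 12 h (adjusted p = 0.544).

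Maturation genes moved in both directions. Of 28 tested genes 2 rose (7.14%) and 6 fell (21.4%), against 8.90% and 7.09% of all genes tested. The median of 0.00 was -0.09 under median centring. Tnfsf4, the OX40 ligand that costimulates T cells, fell from 10.19, 9.32 and 10.08 to 9.01, 8.48 and 9.03 with no overlap (log2 change -1.03, SE 0.14, adjusted p = 0.000732 in limma). Il15, which sustains NK and memory T cells, fell by 0.94 (SE 0.22, adjusted p = 0.0126), a call that was lost without either wild-type array or without the Cd14-deficient 6 h array, with values of -1.05 to -0.85. Cd40 fell by 0.35, Icosl by 0.58 and Cd70 by 0.64 on the log2 scale. Leaving out 1 array gave 2 to 4 falls and 1 rise, and without further scaling 4 fell and 1 rose.

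Ccr7, the receptor that guides dendritic cells to lymph nodes, rose by 0.26 (SE 0.08, adjusted p = 0.0483 in limma). That call was lost when any of the 6 arrays was left out, as were the calls of Irf8, Ly96, H2-D1, Zc3h12a, Tpi1, Fcer1g, Hk2, Pgk1, Aars and Nfatc1. The costimulators Cd80, Cd86 and Cd83 and the checkpoint ligand Cd274 changed by 0.02, 0.14, 0.14 and 0.02, none called. So did the maturation chemokines Ccl17 and Ccl22, at -0.15 and -0.01, which lay near the top of the scale. The chemokine receptor Cxcr4, which binds Cxcl12, rose by 0.74 on the mean, with 1.25 in wild-type, 0.57 in EGTA and 0.40 in Cd14-deficient cells. The Cxcr4 call was lost without either wild-type array, with values of 0.49 to 0.91.

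Receptors for antigen uptake gave 3 rises (14.3%) and 3 falls (14.3%) among 21 tested, against 8.90% and 7.09% of all genes. Mrc1, the mannose receptor, stood at 10.60, 10.48 and 10.50 at 6 h and 9.69, 9.48 and 9.46 at 12 h with no overlap (log2 change -0.99, SE 0.13, adjusted p = 0.000802 in limma). It had stood at 11.58 without LPS in wild-type cells. Clec10a, a lectin for galactose-type sugars, fell by 0.95 and Axl by 0.30 on the log2 scale. The 3 rises were of Fc receptor genes: Fcgr2b, the inhibitory receptor for IgG, by 0.68 (SE 0.10, adjusted p = 0.0015), Fcgr3 by 0.26 and the shared signalling chain Fcer1g by 0.17. Only 1 rise was called under median centring or without further scaling. With 1 array left out 1 or 2 rose and 1 to 3 fell, the Fcgr3 call was lost in 5 of the 6 cases, and Fcgr2b and Mrc1 kept their calls.

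Of 15 tested genes of MHC class I presentation 5 rose (33.3%, against 8.90% of all genes tested) and none fell, with a median of 0.11. Under median centring 3 rose and the median was 0.02, against 0.01 for all genes tested. Psmb8, an immunoproteasome subunit, stood at 11.93, 11.97 and 11.82 at 6 h and 12.32, 12.30 and 12.29 at 12 h, a rise of 1.32-fold without overlap (log2 change 0.40, SE 0.06, adjusted p = 0.00195 in limma). Psme1, a part of the proteasome activator PA28, rose by 0.37, H2-M3 by 0.34, Calr, the loading chaperone calreticulin, by 0.29 and H2-D1 by 0.15. Tap1, the peptide transporter, changed by -0.16 without passing the test. With 1 array left out 2 to 4 members rose, and without the wild-type condition none did. Of 12 class II genes 1 rose (8.33%, against 8.90% of all genes tested), the thiol reductase Ifi30 at 0.47. The class II beta chain gene H2-Ab1 changed by 0.09 and the class II regulator Ciita by -0.33, neither called. Among 31 subunits of the constitutive proteasome Psmb5, Psma7 and Psmd11 rose (9.68%, against 8.90% of all genes tested), by 0.41, 0.26 and 0.26. Without further scaling 1 rise was called, and median centring gave 1 rise and 1 fall.

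Regulators of lineage and interferon signalling gave 4 rises (13.8%) and 6 falls (20.7%) among 29 tested, against 8.90% and 7.09% of all genes tested. There were 2 falls without further scaling and 2 to 4 with 1 array left out. Batf3, needed for cross-presenting dendritic cells, stood at 7.90, 8.25 and 7.99 at 6 h and 8.90, 8.95 and 8.83 at 12 h with no overlap (log2 change 0.84, SE 0.13, adjusted p = 0.00156 in limma). Stat4, which relays IL-12 signals, rose by 0.82, Nfil3 by 0.61 and Irf8, a factor for dendritic cell identity, by 0.29. Tcf4, the E protein E2-2, fell by 0.98 (SE 0.13, adjusted p = 0.000889), Cebpd by 0.79 and Irf2 by 0.69 on the log2 scale. Irf4 changed by -0.08, Irf1 by -0.34 and Irf7 by 0.16, none called.

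The sterol and fatty acid synthesis list had a median of -0.44. Of 27 tested genes 10 fell (37.0%, against 7.09% of all genes tested) and none rose: Scd1, Hsd17b7, Msmo1, Nsdhl, Srebf2, Idi1, Sc5d, Sqle, Cyp51 and Hmgcs1. Scd1, the desaturase that makes oleate, stood at 9.53, 9.79 and 9.44 at 6 h and at 8.99, 9.09 and 8.77 at 12 h with no overlap (log2 change -0.64, SE 0.11, adjusted p = 0.00326 in limma). Idi1, an isomerase of the mevalonate pathway, moved from 11.89, 12.52 and 12.05 to 11.02, 11.98 and 11.07 with overlap (log2 change -0.79, SE 0.21, adjusted p = 0.0244). Srebf2, the master regulator of sterol synthesis, fell by 0.44.

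The size of this fall varied between conditions. The list median was -0.53 in wild-type, -0.20 in EGTA and -0.67 in Cd14-deficient cells, and no single gene's difference between conditions was called. Without further scaling 4 genes fell and 1 rose. The number of falls also depended on which arrays were used. It was 2 without the wild-type 12 h, Cd14-deficient 6 h or Cd14-deficient 12 h array, 3 without the wild-type 6 h array, 5 without the EGTA 6 h array and 11 without the EGTA 12 h array. Without a whole condition it was 1 (wild type), 13 (EGTA) or 2 (Cd14-deficient). The Idi1 call was lost when any array other than EGTA at 12 h was left out, with values of -0.93 to -0.69 over all alternatives.

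Of 29 tested mitosis genes 11 fell (37.9%, against 7.09% of all genes tested) and none rose, with a median of -0.37. The median was -0.10 in wild-type, -0.28 in EGTA and -0.74 in Cd14-deficient cells. Ube2c, the ubiquitin-conjugating enzyme of the anaphase-promoting complex, stood at 7.92, 7.91 and 9.66 at 6 h and 6.98, 7.23 and 8.58 at 12 h. Each condition fell, with overlap because Cd14-deficient cells were higher at both times (log2 change -0.90, SE 0.11, adjusted p = 0.000566 in limma). Ccnb2, a mitotic cyclin, moved from 7.20, 7.32 and 8.30 to 6.57, 6.50 and 7.53 (log2 change -0.74, SE 0.12, adjusted p = 0.00222). Stmn1, which destabilises microtubules, fell by 0.68, Mad2l1, a spindle checkpoint protein, by 0.64 and Tpx2, a spindle assembly factor, by 0.77. With 1 array left out 5 to 9 of the genes fell, and without further scaling 5. Leaving out the Cd14-deficient 6 h or 12 h array gave the lowest counts, 5 and 6.

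Of 32 tested DNA replication genes 4 rose (12.5%, against 8.90% of all genes tested) and none fell, with a median of 0.18. The median was 0.04 in wild-type, 0.17 in EGTA and 0.20 in Cd14-deficient cells, and without the Cd14-deficient 6 h array it was 0.04 with 1 rise. Prim1, the catalytic primase subunit, went from 7.18, 7.13 and 6.94 to 7.91, 7.69 and 7.70 (log2 change 0.68, SE 0.16, adjusted p = 0.0141 in limma). Its 12 h levels lay above all 6 h levels and below the 8.45 of unstimulated wild-type cells. That call was lost without the wild-type 12 h or the Cd14-deficient 6 h array, with values of 0.50 to 0.83. Uhrf1, which maintains DNA methylation at the fork, rose by 0.66, Pold1, the catalytic subunit of polymerase delta, by 0.64 and Rrm2, a subunit of ribonucleotide reductase, by 0.50. Rises numbered 1 to 4 with 1 array left out and 0 without the wild-type condition. With the mean of all probe sets 1 of 30 genes rose and 1 fell.

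Of 54 mitochondrial ribosomal protein genes 9 rose (16.7%, against 8.90% of all genes tested) and Mrpl39 fell, with a median of 0.13. Mrpl13 led at 10.37, 10.22 and 10.16 at 6 h and 10.98, 10.97 and 11.11 at 12 h (log2 change 0.77, SE 0.12, adjusted p = 0.00154 in limma). Cytosolic ribosomal proteins gave 1 rise among 31 (3.23%, against 8.90% of all genes tested), Rps27l at 0.33. Of the 31 changes 25 were negative, against 3084 of all 6929 genes tested, and median centring gave 0 rises and 2 falls. Of 20 heat shock and chaperone genes 6 rose (30%, against 8.90% of all genes tested) and none fell. Hsph1 rose by 0.55, Hspe1 by 0.48 and the chaperonin gene Tcp1 by 0.32. Median centring gave 3 rises and no further scaling gave 4.

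The amino acid response and tRNA synthetase genes gave 5 rises (16.1%) and 1 fall (3.23%) among 31, against 8.90% and 7.09% of all genes tested. The list median was 0.20. Median centring gave 1 rise and 2 falls, no further scaling 2 rises and 0 falls, and 1 array left out 0 to 5 rises. Ddit3, the stress factor CHOP, rose by 0.72 (SE 0.18, adjusted p = 0.0185), a call that was lost without either wild-type or either EGTA array, with values of 0.65 to 0.85. The synthetase genes Nars, Sars, Aars and Lars rose by 0.28 to 0.36, and Rars fell by 0.42 on the log2 scale. With 1 array left out, rises in the other lists numbered 2 to 7 among mitochondrial ribosomal proteins and 1 to 5 among chaperones.

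Among other metabolic lists, glycolysis and hypoxia had a median of -0.03 and oxidative phosphorylation of -0.01. Of 22 glycolysis and hypoxia genes 4 fell (18.2%, against 7.09% of all genes tested) and 1 rose (4.55%, against 8.90%). Hif1a, Hk2, Pgk1 and Pfkp fell by 0.26 to 0.36 on the log2 scale, and Tpi1 rose by 0.49. No fall was called without further scaling or without the EGTA 6 h array, 1 or 2 with any of the other 5 arrays left out, and no rise with any array left out. Oxidative phosphorylation gave 4 rises (6.67%) and 2 falls (3.33%) among 60 genes, both below the shares of all genes tested. The rises were led by Ndufs7 at 0.39, and median centring gave 1 rise and 2 falls. Acod1, which makes itaconate, changed by -0.02, near the top of the scale. Slc11a1, the phagosomal metal transporter Nramp1, rose from 9.56, 9.74 and 9.61 to 10.28, 10.50 and 10.52 with no overlap (log2 change 0.80, SE 0.12, adjusted p = 0.0014 in limma). Srm, the spermidine synthase downstream of arginase, rose by 0.68 (SE 0.08, adjusted p = 0.000566).

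Cytoskeletal and adhesion genes moved in both directions, with 5 rises and 5 falls among 41 genes. These were 12.2% each, against 8.90% and 7.09% of all genes tested. Ezr, the ezrin that links actin to the membrane, rose by 0.64 and the coronins Coro1c and Coro1a by 0.65 and 0.60. Gsn, the severing protein gelsolin, fell by 0.62 on the log2 scale. The list gave 2 falls without further scaling and 1 to 3 with 1 array left out. Of 24 calcium and NFAT genes 1 rose (4.17%) and 4 fell (16.7%), against 8.90% and 7.09% of all genes tested. Orai1, the pore of store-operated calcium entry, rose by 0.41. The pumps Atp2a3 and Atp2a2, the kinase gene Camk1 and Nfatc1 fell by 0.84, 0.41, 0.47 and 0.40, and 2 falls were called without further scaling. Of 38 splicing genes 4 fell (10.5%, against 7.09% of all genes tested), led by Sfpq at -0.61, and none rose. Without further scaling 2 fell and 1 rose.

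No gene's change was called as different between conditions. Of the 1108 called genes 1106 had the same sign of change in all 3 conditions, against 57.0% of all genes tested, a share that the test itself favours. A test of the difference in change found 0 genes for EGTA against wild type and 0 for Cd14-deficient against wild type in limma. At an unadjusted p under 0.05 there were 87 (1.26%) and 142 (2.05%). On simulated data the test for EGTA found 18 of 50 genes made to differ by 2-fold and 39 of 50 by 4-fold, so that differences near 2-fold would often be missed. No called gene moved by 2-fold in opposite directions in different conditions, which the test itself also favours.

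The cultures expressed the dendritic cell markers Itgax, Irf4, Ccr7 and H2-Ab1, with deposited intensities of at least 1120 on all 6 arrays, while Flt3 reached only 58.05 and Xcr1 25.6. Cd209a, Kmo and Zbtb46 reached at most 46.97, 123.5 and 236.5. Of 10 tested members of this list 3 rose (30%, against 8.90% of all genes tested) and none fell. With any 1 array left out 1 rose. Some macrophage markers were also strong, with Lyz2 between 10560 and 11700 and Cd68 between 4846 and 6438, while C1qa ran from 357.2 to 1917. Of 12 tested macrophage markers Mrc1 and Apoe fell and Adgre1 and Csf1r rose (16.7% each, against 7.09% and 8.90% of all genes tested). The summed intensity of the list ran from 30487.1 to 52475.0 at 6 h and from 30290.6 to 53496.7 at 12 h. The lowest sum at each time was that of the Cd14-deficient array, and the list holds Cd14 itself. Wild-type cells stood at 48054.0 and 50161.7. In bulk RNA fewer cells of a type and less RNA per cell cannot be told apart.

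Granulocyte markers leaned down, with 11 of 14 changes negative, against 3084 of all 6929 genes tested, and a median of -0.36. Of the 14, 2 fell (14.3%) and 1 rose (7.14%), against 7.09% and 8.90% of all genes tested. The summed intensity was 28936.4 to 36006.7 at 6 h and 27246.3 to 31036.2 at 12 h. Elane, neutrophil elastase, fell by 0.91, Mmp8 by 0.33, and Lcn2, which LPS also induces in other cells, rose by 0.57. Their part in the other results was not tested. The summed erythroid list did not overlap, at 3339.3 to 4605.2 against 5500.0 to 7924.0. Most of the sum was Car2, carbonic anhydrase 2, which ran from 2556 to 6929 and rose by 0.85. Tfrc, the other tested member, ran from 397.1 to 817.7 and was not called, while Hba-a1 and Alas2 reached at most 24.1 and 12.5. In the T and NK cell list Cd3e and Cd4 reached at most 16.2 and 9.39, while Il7r, which is not restricted to T cells, ran from 3943 to 6280. In the B cell list Cd79a and Pax5 reached at most 17.6 and 8.24, while Blnk ran from 2522 to 3779 and Ighm from 113.7 to 181.4.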

How the data were processed

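RNA of cultured cells was hybridised to 18 Affymetrix arrays of 22690 probe sets. Each deposited value is the linear intensity of a probe set, made by the authors with MAS5 per the submitters' processing notes. Which version and which scaling target were used is not given in the sources used here. Values were quantile-normalised over the 18 arrays and taken as log2(value + 16), which understates fold changes of dim genes.

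Of the probe sets, 20393 had 1 gene in the array's annotation, 691 several and 1606 none. The brightest 1-gene probe set stood for each of 12394 genes, and 6929 were tested, those brighter than the median of an array on 2 or more of the 15 LPS arrays. limma 3.58.1 in R 4.3.3 fitted time and condition over the 15 LPS arrays (8 residual degrees of freedom, intensity trend), with Benjamini-Hochberg adjustment over all genes tested and a threshold of 0.05. The condition difference had 4 residual degrees of freedom. On simulated data with 50 changed genes per size among 6929, 38 changed by 1.5-fold and 47 by 2-fold were recovered for 12 h against 6 h, with 11 unchanged genes called.

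Genes were named as the 15 largest rises and falls with 1 sign in all conditions, up to 6 called and 3 other members of each list, and 66 genes chosen from knowledge of the LPS response. Other members of a list that are named, such as Cyp51, Sqle, Sc5d, Hmgcs1 and Cd70, complete its count and were chosen after their values were seen. The members and lists were chosen with earlier results of these data known. Alternatives were median centring, no further scaling, other pseudocounts and filters, the mean of probe sets, other sets of arrays, no term for condition, no trend, and leaving out each array or condition.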

Additional observations from a re-analysis of the deposited data

How the results depend on the processing

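The count of 1108 genes stayed within 1.5 times of itself under median centring (1025), pseudocounts of 1 and 64, both filters, the mean of all probe sets (974), only the 6 arrays (1389), all 18 arrays (875), no 2 h arrays and no intensity trend. Without further scaling 774 genes were called and only 189 were lower. Without the term for condition, which pairs the arrays, 142 were called, 83 higher and 59 lower, of which 9 and 15 by 2-fold or more. Leaving out 1 array or 1 condition gave 141 to 733 called genes, 56 to 415 higher and 85 to 373 lower. The lowest count, 141, came without the wild-type condition. By 2-fold or more, 8 to 23 were higher and 23 to 51 lower. A pseudocount of 64 left 4 and 21 such genes, and the stricter filter and the mean of probe sets left 10 and 12 rises. None of the called genes changed sign, apart from 5 with the mean of all probe sets, among them Man2b1, a lysosomal mannosidase, at 0.22 against -0.29. Cd14, not called at 0.37, was -0.22 (adjusted p = 0.0374 in limma) without the Cd14-deficient condition and at most 0.67 without another condition. The labels give no replicate numbers, so no other pairing was fitted.

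Of 184 named genes called, 19 lost the call whichever of the 6 arrays was left out, 78 stayed called without any 1 array and 16 under all 21 alternatives, among them Ccl1, Tsc22d1, Mrc1, Rel, Ly6i and Slc11a1. The median changed sign between the scalings in 15 of 38 lists, none of them further than 0.12 from 0 under any of the 3 scalings. Dim genes have low precision, and 1 array per condition and time leaves differences between conditions poorly measured.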

Other observations

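Further gene families were looked at after their values were seen, and their counts are descriptions. Of 8 tested tubulin genes, which encode the subunits of microtubules, 6 rose from 6 to 12 h in limma (all genes tested 8.90%), with a family median of 0.62. The count was 6 under each scaling and with any 1 of the 6 arrays left out. Tubb5 stood at 10.92 in wild-type, 10.66 in EGTA and 11.35 in Cd14-deficient cells at 6 h and at 11.91, 11.58 and 12.07 at 12 h (log2 change 0.88, SE 0.11, adjusted p = 0.000566 in limma). The sets did not overlap, and the wild-type level without LPS had been 11.77. Tuba4a rose by 0.86, Tubb2a by 0.70, Tuba1a and Tubg1 by 0.62 and Tubb6 by 0.41, while Tubb4b changed by 0.44 and Tubb4a by -0.49 without passing the test.

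Of 8 tested Ms4a genes, which encode CD20-like membrane proteins, 4 rose (all genes tested 8.90%). Ms4a4c rose by 0.65, Ms4a7 by 0.64, Ms4a6c by 0.53 and Ms4a6d by 0.51. With 1 array left out 3 or 4 were called. Both beta-arrestin genes, which uncouple G protein-coupled receptors, rose, Arrb1 by 0.84 and Arrb2 by 0.55. Of 8 tested ligands of the TNF family 5 fell (all genes tested 7.09%), Tnfsf8, Ltb, Tnfsf4, Tnfsf10 and Cd70. The count of falls was 3 to 5 under the scalings and with 1 array left out. Tnf itself and Tnfsf9, the 4-1BB ligand, changed by -0.36 and 0.01 without passing the test. Of 12 tested aldehyde dehydrogenase genes 2 rose, Aldh1a2, which makes retinoic acid, by 0.84 and Aldh18a1 by 0.87, and 2 fell, with changes of -1.01 for Aldh1b1 and -0.44 for Aldh2 (all genes tested 8.90% and 7.09%). No rise was called without the wild-type 12 h or the Cd14-deficient 6 h array.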
